A study of Mus musculus with 2 samples.

Results

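The regions described here were the stretches of intron that begin at the 3' end of an internal exon of a protein-coding mouse gene. Each window held up to 250 nt of intron, lay in no annotated exon on its strand, and stopped halfway to the next exon where the intron was short. In the mm9 genome with the GENCODE vM1 annotation this rule gave 157859 windows in 17533 genes, out of 317629 windows on both sides of internal exons. They covered 33332165 bases, and 113395 of them (71.8%) had the full length. An exon was called cassette where an annotated intron of the same gene spanned it (17397 windows), and constitutive where no intron of the gene overlapped it (133103 windows). The other 7359 windows followed exons with alternative splice sites. The classes came from the annotation and not from exon inclusion in quadriceps.

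Mbnl2-RNA interactions had been measured by HITS-CLIP, in which UV light links a protein to RNA in the tissue and the linked RNA fragments (tags) are immunopurified and sequenced. The tissue was quadriceps muscle of mice aged 15 to 16 weeks, either wild-type (WT) or homozygous for the Mbnl1 knockout allele (Mbnl1-/-). The labels give the strain as C57BL/6 for both groups, while the methods of the study give a C57BL/129 background for its compound knockout crosses. The labels give no mutation of Mbnl2 for either group. Tags of 3 mice were merged into 1 table per genotype, so no spread between mice could be computed, no test was made, and every interval below is a 95% interval that covers counting error only. RNase A was used at 38.6 U/ml (high) and 0.0386 U/ml (low), and libraries lacking Mbnl2 or input RNA were not analysed here.

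Muscleblind-like proteins are zinc-finger splicing factors that bind RNA around the tetramer YGCY, where Y is a pyrimidine. They are known for switching exons of muscle genes from fetal to adult patterns, and for being trapped on expanded CUG or CCUG repeats in myotonic dystrophy. As a general rule from earlier work, muscleblind binding in the intron after an exon accompanies inclusion of that exon, and binding before or within it accompanies skipping.

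The stretches under the tags of several named windows held several copies of this motif. The first set shows cassette exons of sarcomere, calcium-handling and Z-disc genes, of which the Ttn and Neb windows are among those with the most tags and the Atp2a1, Tnnt3 and Ldb3 windows, with fewer, belong to splicing targets of the study. Each line gives the part of the window that tags covered, as mm9 reference sequence on the RNA strand from 5' to 3', with YGCY in capitals and T for U.
Ttn, cassette exon of 78 nt, chr2:76687271-76687313, minus strand: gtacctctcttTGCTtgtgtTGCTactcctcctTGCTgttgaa
Ttn, cassette exon of 81 nt, chr2:76678184-76678262, minus strand: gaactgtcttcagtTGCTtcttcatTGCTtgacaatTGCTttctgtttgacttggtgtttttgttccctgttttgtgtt
Ttn, cassette exon of 75 nt, chr2:76688254-76688335, minus strand: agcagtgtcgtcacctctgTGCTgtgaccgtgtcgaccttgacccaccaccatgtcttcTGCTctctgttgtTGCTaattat
Neb, cassette exon of 105 nt, chr2:52016760-52016864, minus strand: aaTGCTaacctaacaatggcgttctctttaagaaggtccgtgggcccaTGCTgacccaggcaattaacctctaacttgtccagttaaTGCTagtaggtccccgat
Atp2a1, cassette exon of 42 nt, chr7:133589926-133590058, minus strand: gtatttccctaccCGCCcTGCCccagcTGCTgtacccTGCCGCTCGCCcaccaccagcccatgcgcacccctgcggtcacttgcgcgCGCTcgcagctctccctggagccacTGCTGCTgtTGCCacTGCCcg
Tnnt3, cassette exon of 39 nt, chr7:149693694-149693798, plus strand: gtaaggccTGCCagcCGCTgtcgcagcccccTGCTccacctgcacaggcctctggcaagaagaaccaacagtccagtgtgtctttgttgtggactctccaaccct
Ldb3, cassette exon of 23 nt, chr14:35385926-35385969, minus strand: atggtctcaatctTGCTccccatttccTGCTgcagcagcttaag

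The second set shows windows in which the covered stretch differed from that pattern. The Ccdc93 stretch is a tandem repeat full of the motif, whereas the Ano1 stretch holds none and the Ryr1 stretch holds 1. The 15-nt Ryr1 exon is annotated as constitutive but is known to be alternatively spliced in muscle. The stretches in the last pair of lines come from separate Ttn introns and are identical.
Ccdc93, constitutive exon of 54 nt, chr1:123380003-123380167, plus strand: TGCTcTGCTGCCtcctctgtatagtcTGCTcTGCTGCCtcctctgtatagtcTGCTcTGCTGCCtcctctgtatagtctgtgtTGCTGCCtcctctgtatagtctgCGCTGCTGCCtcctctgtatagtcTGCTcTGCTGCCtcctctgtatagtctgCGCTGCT
Ano1, constitutive exon of 58 nt, chr7:151796565-151796593, minus strand: aaagcatcctccgggagaaagggttgact
Ryr1, constitutive exon of 15 nt, chr7:29841086-29841236, minus strand: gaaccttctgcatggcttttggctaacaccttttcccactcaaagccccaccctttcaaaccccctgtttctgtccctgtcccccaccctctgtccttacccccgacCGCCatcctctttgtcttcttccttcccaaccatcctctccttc
Ttn, cassette exon of 84 nt, chr2:76670284-76670314, minus strand: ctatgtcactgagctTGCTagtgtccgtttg
Ttn, cassette exon of 84 nt, chr2:76666502-76666532, minus strand: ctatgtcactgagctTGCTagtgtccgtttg

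The tables held 343554 tags in WT and 476543 in Mbnl1-/-, collapsed by the authors from 5176203 and 50329234 reads. Tags of which at least 70% was a single base numbered 148588 and 80234 and were left out, which left 188766 and 392681 tags on assembled chromosomes as the scale. Values per table are given as TPM, meaning here tags per 1000000 tags used. The tissue markers were those of muscle: exon tags of 10 myofibre genes summed to 739 in WT and 2483 in Mbnl1-/-, with no gene at 0. Those of 17 genes of other cell types summed to 154 and 680, of which the fibroblast genes gave 122 and 461 (Col1a1), 9 and 102 (Col3a1) and 13 and 85 (Dcn), and 9 and 5 of the 17 were at 0. Alb and Apoa1 (liver) and Snap25 and Syp (neurons) were at 0 in both tables. The part of other cell types in the results was not tested. RNA levels were not measured, so more Mbnl2 on an RNA and more of that RNA, or of the cells that make it, cannot be told apart.

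A small share of the tags lay in the windows, with somewhat more of them in Mbnl1-/-. The windows held 2030 WT tags, or 1.08% of those used (1.03 to 1.12%), and 4891 Mbnl1-/- tags, or 1.25% (1.21 to 1.28%). This was 10754 TPM in WT and 12455 in Mbnl1-/-, a ratio of 1.16 (1.10 to 1.22). The ratio depended on the scale and fell to 0.856 when both tables were scaled to tags on the sense strand of protein-coding genes. Over the same tables, exons of protein-coding genes had a ratio of 1.92 (1.89 to 1.95), windows upstream of internal exons 1.15 (1.09 to 1.22) and the remaining intron sequence 1.08 (1.07 to 1.09). The downstream ratio was thus well below that of exons, and its interval overlapped that of the upstream windows.

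Per base, downstream windows were the more densely tagged side of the exon in both genotypes. Their density was 323 TPM per Mb in WT and 374 in Mbnl1-/-, against 275 and 316 in upstream windows, 243 and 262 in the remaining intron sequence, and 1382 and 2660 in exons. When both sides of the same exons were compared, the downstream side had 1.18 times the density of the upstream side in WT (1.10 to 1.26) and 1.18 times in Mbnl1-/- (1.13 to 1.23).

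Most windows held no tag and most tagged windows held 1. Of all windows, 1721 (1.09%) had a tag in WT, 3128 (1.98%) in Mbnl1-/- and 4351 (2.76%) in either. Both tables had a tag in 498 windows, which was 28.9% of the tagged WT windows and 15.9% of the tagged Mbnl1-/- windows. Exactly 1 tag over both tables was found in 3072 windows (70.6% of those tagged). At the other end, 133 windows with at least 5 tags held 15.5% of all 6921 tags and 25 windows with at least 10 held 6.00%. A window without a tag therefore says little, since a count of 0 allows up to 15.9 TPM in WT and 7.64 in Mbnl1-/-.

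The opposite strand of the same windows was counted for comparison. Antisense tags, in no exon of that strand, numbered 1048 in WT and 1442 in Mbnl1-/-. Sense tags outnumbered them 1.94 to 1 in WT (1.80 to 2.09) and 3.39 to 1 in Mbnl1-/- (3.20 to 3.60). The antisense tags were at lower TPM in Mbnl1-/-, with a ratio to WT of 0.661 (0.610 to 0.717). They held YGCY in 28.1% of tags in WT and 37.2% in Mbnl1-/-, below the sense shares given next. Tags made of 1 read were 61.0% of the sense tags in WT and 44.2% in Mbnl1-/-. The part that this difference in antisense share had in the comparisons of the genotypes was not tested.

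The muscleblind motif was frequent in the tags of both genotypes. YGCY, searched on the RNA strand as TGCT, as TGCC, as CGCT and as CGCC, was in 45.3% of the WT tags (43.1 to 47.5%) and in 56.0% of the Mbnl1-/- tags (54.6 to 57.4%). Stretches of the same lengths over the windows that held those tags had it in 25.4% and 29.2%, so tags exceeded their own windows 1.78-fold and 1.91-fold. The shares of the genotypes are not at equal tag length, since the median tag was 21 nt in WT and 24 nt in Mbnl1-/-. With tags of at least 25 nt they were 59.6% (54.5 to 64.4%) and 62.6% (60.6 to 64.6%), and these intervals overlapped. Tags after cassette exons held it in 53.9% in WT and 64.9% in Mbnl1-/-, and tags after constitutive exons in 43.5% and 53.4%. Their folds over their own windows were close to each other, at 1.79 and 1.91 for cassette and 1.78 and 1.90 for constitutive exons. Upstream tags held it about as often, in 45.5% in WT and 55.2% in Mbnl1-/-.

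Among all tetramers, TGCT had the highest frequency in tags relative to whole windows, 2.87-fold in WT and 2.99-fold in Mbnl1-/-. TTGC followed at 2.79-fold and 2.82-fold, and GCTT at 2.70-fold and 2.82-fold, and each shares 3 letters with TGCT. Next of the YGCY tetramers, CGCT reached 2.09-fold and 2.20-fold and TGCC 1.53-fold and 1.66-fold. CGCC was the least enriched of the YGCY tetramers, at 1.12-fold and 1.54-fold. Across tetramers, which share windows, base composition and overlapping letters, the log2 folds of the tables had a Pearson correlation of 0.81.

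A few other tetramers stood apart in WT. ACGA was at 2.63-fold in WT and 0.904-fold in Mbnl1-/-, CGAT at 2.50-fold and 1.05-fold, GGAG at 2.25-fold and 0.878-fold, and GAGG at 2.20-fold and 0.829-fold. A hexamer that was GGGAGG, or GAGGAC, or GGACGA was in 176 WT tags of the windows, or 8.67% (7.48 to 9.98%), and in 92 Mbnl1-/- tags, or 1.88% (1.52 to 2.30%). The shares over all tags used were alike, at 8.40% and 1.95%. Of these WT tags 71.6% consisted of 1 read. The linker sequence of the libraries is not given in the sources used here, so whether these tags hold linker sequence was not tested. Without these tags the YGCY share was 48.1% in WT and 56.6% in Mbnl1-/-, and the within-gene ratio of cassette to constitutive windows given below was 1.78 in WT and 2.20 in Mbnl1-/-.

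**Figure D1:**
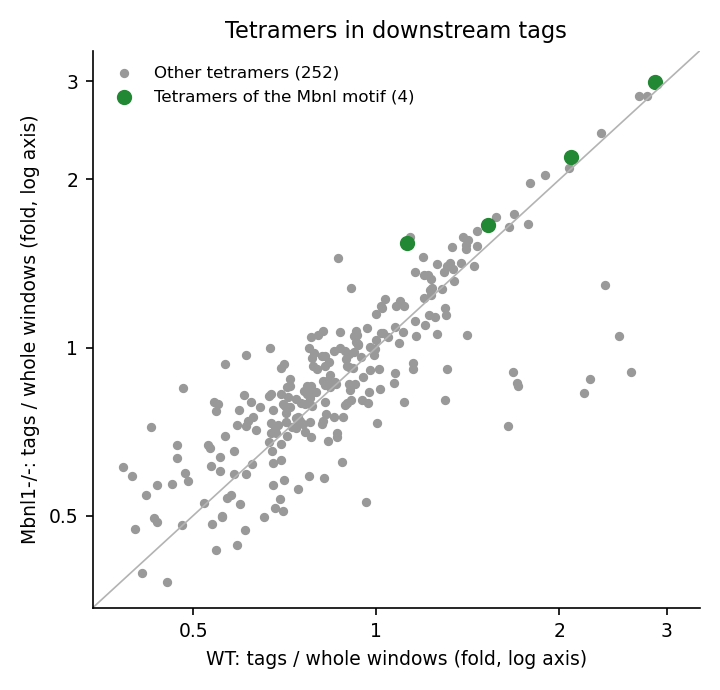
Each point is a tetramer, placed by its frequency in tags of the downstream windows over its frequency in all sequence of those windows, in WT (x axis) and Mbnl1-/- (y axis), both on log axes; the line marks equal folds. Of the 4 tetramers of the Mbnl motif, TGCT (2.87 and 2.99), CGCT and TGCC lie near the line and CGCC lies above it (1.12 and 1.54). A group of other tetramers lies far to the right of the line at over 2-fold in WT.

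Tags were denser after cassette exons than after constitutive exons in both genotypes. The density was 535 TPM per Mb after cassette exons and 293 after constitutive exons in WT, and 742 and 329 in Mbnl1-/-. Exons with alternative splice sites had 354 and 307. Since genes differ in RNA level, the classes were also compared within 6520 genes that had both. There the cassette side had 1.86 times the density of the constitutive side in WT (1.60 to 2.16; 359 and 767 tags) and 2.18 times in Mbnl1-/- (1.996 to 2.38; 1053 and 1903 tags). Without titin (Ttn), the gene with the most tags, these ratios were 1.68 (1.44 to 1.95) and 1.96 (1.79 to 2.15).

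The count of tagged windows, which does not depend on how many tags pile up in one window, showed the same order. A tag was found after 1.62% of cassette exons and 1.02% of constitutive exons in WT, and after 3.22% and 1.84% in Mbnl1-/-. Within genes the ratio of tagged windows per base was 1.61 (1.37 to 1.89) in WT and 1.72 (1.53 to 1.92) in Mbnl1-/-. The upstream side of the exons also had more tags in cassette exons, 1.46 times in WT (1.24 to 1.71) and 2.07 times in Mbnl1-/- (1.89 to 2.27). The excess at cassette exons was thus present on both sides.

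In WT the downstream excess over the upstream side was larger for cassette exons than for constitutive exons. At WT cassette exons the downstream density was 1.47 times the upstream density of the same exons (1.24 to 1.73). For WT constitutive exons it was 1.13 times (1.05 to 1.22), and these intervals did not overlap. Leaving out Ttn took the WT cassette tags in the within-gene comparison from 359 to 309 downstream and from 255 to 235 upstream. This ratio of the sides was not recomputed without Ttn, so whether the intervals stay apart without it was not tested. In Mbnl1-/- the ratios were 1.21 (1.11 to 1.33) for cassette and 1.19 (1.14 to 1.25) for constitutive exons. These intervals overlapped each other and that of WT cassette exons.

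The excess of Mbnl1-/- over WT in TPM was larger at cassette exons when all tags were used. The ratio of Mbnl1-/- to WT was 1.39 (1.23 to 1.56) after cassette exons and 1.12 (1.06 to 1.19) after constitutive exons. On the sense scale these were 1.02 (0.910 to 1.16) and 0.829 (0.781 to 0.880). The odds that a downstream tag belonged to a cassette rather than a constitutive exon were 1.24 times higher in Mbnl1-/- (1.08 to 1.41), and 1.18 times without Ttn (1.02 to 1.36). With tags of at least 2 reads the value was 1.06 (0.874 to 1.28), an interval that holds 1. This ratio of odds does not depend on the scale of the tables. On the upstream side the shift was larger, with genotype ratios of 1.64 (1.43 to 1.89) and 1.06 (0.992 to 1.13) and an odds ratio of 1.55 (1.33 to 1.81). These upstream genotype ratios were 1.21 (1.06 to 1.40) and 0.781 (0.733 to 0.832) on the sense scale. With 1 merged table per genotype, differences between mice and between genotypes cannot be told apart.

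**Figure D2:**
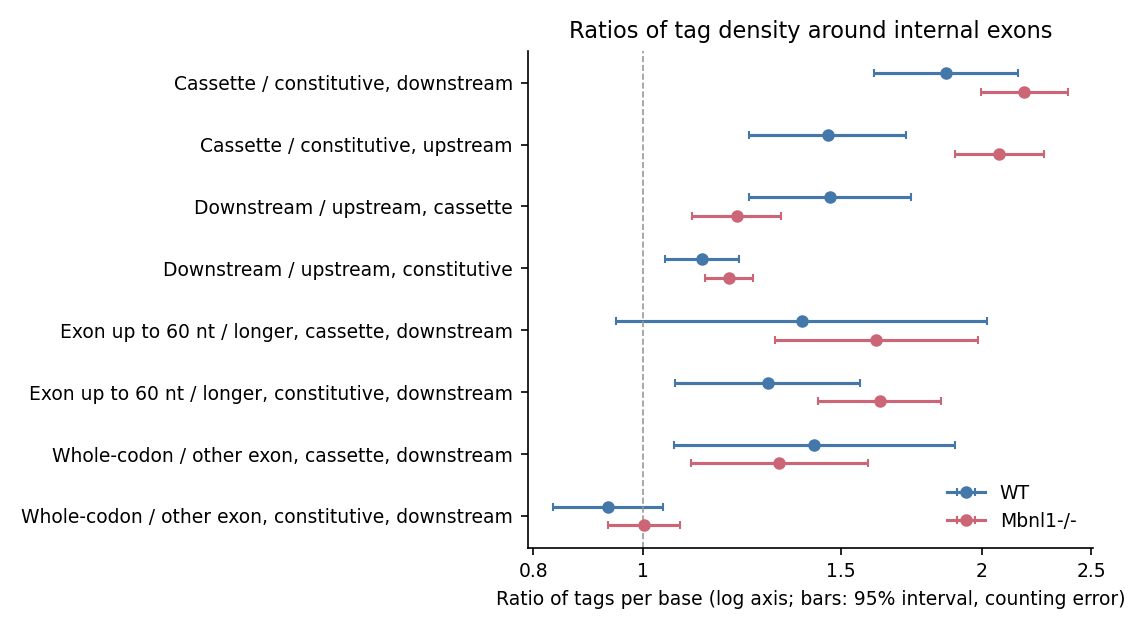
Points are ratios of tags per base in WT and Mbnl1-/- on a log axis, with 95% intervals for counting error as bars and a dashed line at 1; each row names the kinds of window compared. The cassette to constitutive ratios downstream are 1.86 in WT and 2.18 in Mbnl1-/-, and the downstream ratios for whole-codon exons are 1.42 and 1.32 for cassette exons but 0.932 and 1.00 for constitutive exons.

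The tags after cassette exons were concentrated close to the exon. In bins of 25 nt the density peaked at 26 to 50 nt from the exon, at 799 TPM per Mb in WT (616 to 1021) and 1129 in Mbnl1-/- (973 to 1302). At 226 to 250 nt it was 365 (229 to 553) and 591 (464 to 742). The first 25 nt, which hold the 5' splice site, had lower values of 428 and 700. In full-length windows, the first 125 nt held 1.44 times the tags of the next 125 nt in WT (1.12 to 1.86) and 1.26 times in Mbnl1-/- (1.09 to 1.45).

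After constitutive exons the highest bin was also 26 to 50 nt, at 359 TPM per Mb in WT (313 to 409) and 400 in Mbnl1-/- (367 to 437). The first 25 nt were at 260 (221 to 303) and 231 (205 to 258), and the last bin at 261 and 296. The first 125 nt exceeded the next 125 nt 1.05-fold in WT (0.942 to 1.17) and 1.13-fold in Mbnl1-/- (1.05 to 1.21). In both genotypes this interval overlapped that of cassette exons. The cassette profile lay above the constitutive profile in every bin in Mbnl1-/-, and in every bin but that of 201 to 225 nt in WT (242 and 275).

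**Figure D3:**
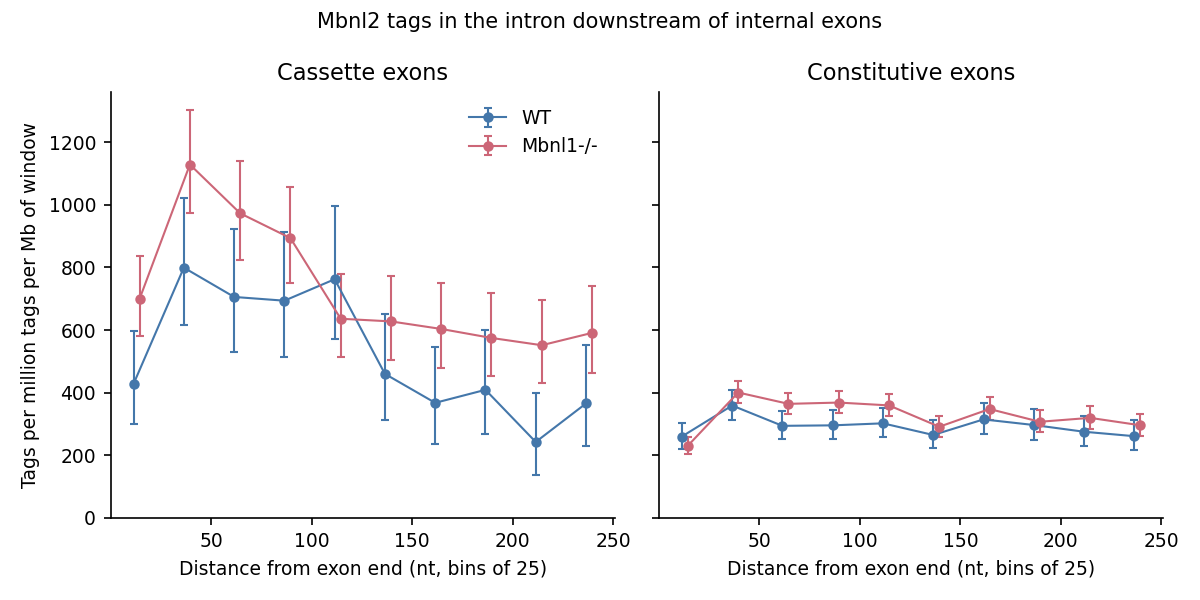
TPM per Mb (y axis) are plotted against distance from the exon end in bins of 25 nt (x axis) after cassette exons (left) and constitutive exons (right), in WT and Mbnl1-/-, with 95% Poisson intervals as bars. Cassette profiles peak at 26 to 50 nt, at 799 and 1129, while constitutive profiles stay between 231 and 400.

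In Mbnl1-/-, windows after very short cassette exons were the most densely tagged, whereas in WT the intervals of the cassette classes overlapped except that of 121 to 180 nt, the lowest. Cassette exons of at most 30 nt, often called microexons, had 1132 windows with 31 WT tags and 141 Mbnl1-/- tags, or 725 (492 to 1028) and 1584 (1334 to 1868) TPM per Mb. Cassette exons of 31 to 60 nt had 753 (573 to 971) and 902 (762 to 1060), those of 61 to 120 nt 554 (470 to 650) and 843 (770 to 922), those of 121 to 180 nt 330 (253 to 424) and 385 (326 to 453), and those over 180 nt 599 (466 to 758) and 651 (553 to 762). Constitutive exons of at most 30 nt had 595 (385 to 878) and 572 (424 to 754), against 279 (257 to 303) and 314 (298 to 331) for those of 61 to 120 nt. The Mbnl1-/- interval after cassette microexons lay above those of all other length classes of both kinds of exon.

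Within genes, the windows after exons of at most 60 nt were compared with those after longer exons of the same class. In Mbnl1-/- the ratio was 1.61 (1.31 to 1.98) for cassette and 1.62 (1.43 to 1.84) for constitutive exons, and in WT it was 1.38 (0.948 to 2.02) and 1.29 (1.07 to 1.56). Upstream of the same kinds of exon the ratios in Mbnl1-/- were 1.13 (0.897 to 1.41) and 1.01 (0.873 to 1.17), and in WT 1.63 (1.01 to 2.64) and 1.52 (1.24 to 1.86). In Mbnl1-/- the excess near short exons was thus seen downstream, and in WT on both sides, except that the WT interval for cassette exons downstream held 1.

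**Figure D4:**
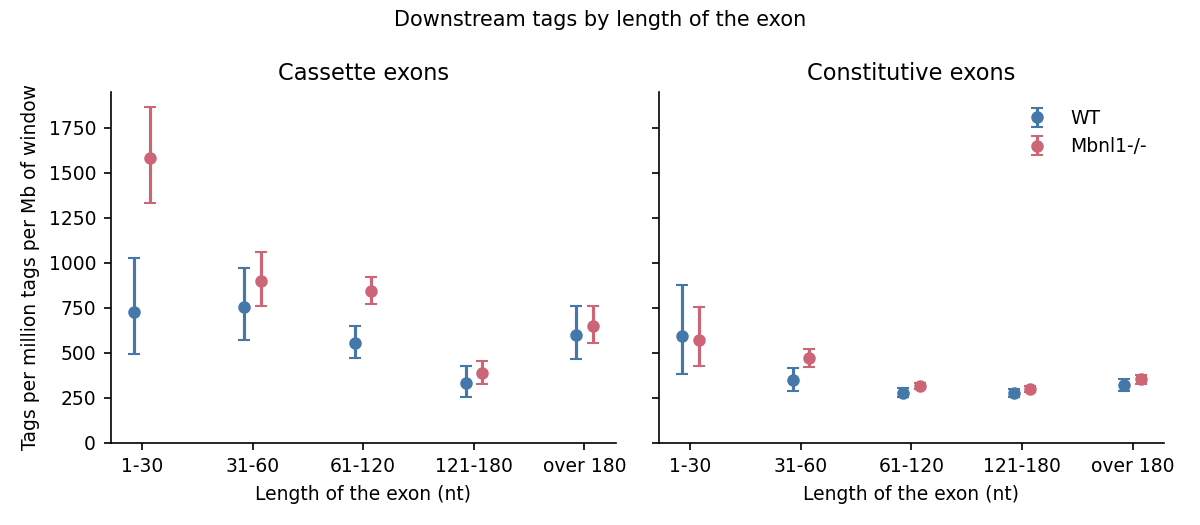
TPM per Mb of downstream window (y axis) are given by length class of the exon in nt (x axis) for cassette (left) and constitutive exons (right), in WT and Mbnl1-/-, with 95% Poisson intervals as bars. The highest point is that of cassette exons of at most 30 nt in Mbnl1-/-, at 1584, and the same class is at 725 in WT.

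Cassette exons whose length is a multiple of 3 keep the reading frame when skipped. Windows after such cassette exons had 1.42 times the density of windows after other cassette exons of the same genes in WT (1.07 to 1.89) and 1.32 times in Mbnl1-/- (1.10 to 1.59). For constitutive exons these ratios were 0.932 (0.833 to 1.04) and 1.00 (0.932 to 1.08). Upstream of whole-codon cassette exons the density was also higher, 2.23 times in WT (1.46 to 3.41) and 1.27 times in Mbnl1-/- (1.03 to 1.56), so the excess was present on both sides. Among the 49 windows of cassette exons with at least 5 tags, 41 (83.7%) followed a whole-codon exon, and 29 of 37 (78.4%) without Ttn. Over all cassette exons the share was 46.6%.

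Sequence and exon length also differed with the number of tags in the window. YGCY occurred 1.20 times per 100 nt in windows without a tag in genes that had tags, 1.51 times with 1 tag, 1.80 times with 2 to 4 tags and 2.79 times with 5 or more. The median exon before the window was 99 nt for windows with at least 5 tags and 125 nt for all windows. Exons of at most 60 nt made up 24.1% of the former and 8.70% of all, and cassette exons 36.8% and 11.0%. These are descriptions of windows sorted by their tags.

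Among single windows, the largest number of tags followed a 78-nt cassette exon of Ttn, which encodes the giant elastic protein of the sarcomere. This window spans only 43 nt of intron (chr2:76687271-76687313) and held 15 tags in WT and 45 in Mbnl1-/-, all 60 with YGCY. The median tag lay 27 nt from the exon. This is 79.5 and 115 TPM, a ratio of 1.44 (0.789 to 2.79). The interval holds 1 on the scale used here. The ratio fell to 0.710 when only tags of at least 25 nt were kept, to 0.770 with equal 5' ends collapsed and to 0.918 with identical positions collapsed. It rose to 2.14 (1.17 to 4.13) with single-base tags kept or on the scale of all tags, and to 2.52 (1.28 to 5.14) with Mbnl1-/- reads thinned to the WT total, where the interval lay above 1.

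Titin windows made up much of the top of the list. In all, 58 of its 338 windows had tags, with 56 tags in WT and 229 in Mbnl1-/-, a ratio of 1.97 (1.46 to 2.68). Windows of cassette exons held 50 and 192 of these, in 154 windows, and windows of constitutive exons 6 and 37, in 182 windows. After an 81-nt cassette exon (chr2:76678040-76678289) 6 WT tags and 18 Mbnl1-/- tags were found, at 43 to 95 nt from the exon. After a 75-nt cassette exon (chr2:76688254-76688362) the counts were 3 and 14, and after another 81-nt cassette exon (chr2:76689968-76690113) 5 and 12. Larger contrasts were seen after a 114-nt cassette exon (chr2:76660258-76660507), with 1 and 16 tags, a ratio of 7.69 (1.19 to 323), and after a 189-nt constitutive exon (chr2:76764894-76765143), with 2 and 17, a ratio of 4.09 (0.970 to 36.5). The interval for the 114-nt exon held 1 with tags of at least 2 reads (0.608 to 172), with identical positions collapsed (0.575 to 190), and on the sense scale (0.883 to 238). The ratio for the second 81-nt exon, 1.15, turned to 0.701 with at least 2 reads, 0.639 at 25 nt or longer, 0.961 with tags placed by their 5' ends or without tags reaching into an exon, and 0.853 on the sense scale.

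Titin holds repeated segments, and this limits some of its windows. The 84-nt cassette exons before the windows chr2:76670284-76670324 and chr2:76666502-76666542 are followed by the same covered sequence, shown above, with 3 and 7 tags at the first and 3 and 5 at the second. All of these tags matched 2 places in the genome, so which intron they came from is uncertain. In 5 further Ttn windows with 5 to 8 tags, each after a cassette exon of 60 to 84 nt, the WT counts were 0 or 1 and the Mbnl1-/- counts 4 to 7.

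Other named windows lay in muscle genes, in part because the naming rule includes the splicing targets of the study. Nebulin (Neb), the ruler of the thin filament, had 1 WT tag and 11 Mbnl1-/- tags after a 105-nt cassette exon (chr2:52016641-52016890), all with YGCY, a ratio of 5.29 (0.769 to 228). Over all 159 Neb windows the counts were 7 and 47, a ratio of 3.23 (1.45 to 8.46). Myosin heavy chain IIx (Myh1) had 5 and 10 tags after a 33-nt constitutive exon (chr11:67013945-67014194), a ratio of 0.961 (0.299 to 3.58). The intervals of these single windows of Neb and Myh1 hold 1, and the ratios of both windows moved with the processing. The Neb ratio was 2.68 with identical positions collapsed and 1.28 at 25 nt or longer, but 7.85 (1.14 to 338) with single-base tags kept and 15.1 (2.15 to 656) after thinning, and the Myh1 ratio was 1.56 with at least 2 reads and 0.365 at 25 nt or longer.

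Fast skeletal troponin T (Tnnt3), whose alternative exons change with muscle development, had tags after several short exons. Over its 17 windows the counts were 7 in WT and 35 in Mbnl1-/-, a ratio of 2.40 (1.05 to 6.41), with 6 and 27 of them after cassette exons. On the sense scale the ratio was 1.78 (0.777 to 4.74), an interval that holds 1. The 39-nt cassette exon (window chr7:149693694-149693943) was followed by 1 and 8 tags, the nearest 10 nt from the exon. One 15-nt cassette exon (window chr7:149690170-149690419) had 3 and 5 tags and another (window chr7:149691436-149691685) 0 and 7. In these last 2 windows 1 tag each held YGCY, so the motif did not mark them as it marked the 39-nt exon, where 6 of 9 tags did.

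The sarcoplasmic reticulum calcium pump Atp2a1 (SERCA1) had 6 tags in WT and 20 in Mbnl1-/- over 20 windows, a ratio of 1.60 (0.621 to 4.88). Its 42-nt cassette exon, which is skipped in the neonatal form of the pump, was followed by 2 and 7 tags (chr7:133589850-133590058), all with YGCY, and the window holds 14 such tetramers. The calcium release channel Ryr1 had 5 and 35 tags over 104 windows, a ratio of 3.36 (1.31 to 11.0), or 2.49 (0.970 to 8.13) on the sense scale, where the interval holds 1. The window after its 15-nt exon (chr7:29841003-29841252), annotated as constitutive though known to be alternatively spliced, held 3 and 11 of these, none with YGCY. A 65-nt exon of Ryr1 was followed by 0 and 6 (chr7:29789674-29789801). Triadin (Trdn), which anchors calsequestrin to the release channel, had 1 and 20 tags, a ratio of 9.61 (1.54 to 398).

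The Z-disc gene Ldb3 had 4 WT tags and 7 Mbnl1-/- tags, a ratio of 0.841 (0.214 to 3.92). Those after its 23-nt cassette exon (chr14:35385926-35386175), 2 and 6, lay 222 to 242 nt from the exon, near the end of the window, and all held YGCY. The muscle chloride channel Clcn1, whose missplicing causes myotonia, had 2 and 9 tags, of which 0 and 5 followed a 78-nt constitutive exon (chr6:42243018-42243229). Mbnl2 itself had 3 and 5 tags, of which 3 and 2 followed a 264-nt exon (chr14:120788386-120788635) and all 5 held YGCY. Mtap4, a microtubule-associated protein, had 3 and 13 tags after a 3180-nt cassette exon (chr9:109942972-109943221).

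Several windows near the top of the list had features other than a set of single motif sites. The repeat after a 54-nt exon of Ccdc93 (chr1:123379918-123380167) held 5 and 18 tags, and a repeat after a 216-nt cassette exon of the receptor phosphatase Ptprs (chr17:56562356-56562605) held 0 and 11, and no tag in these repeats had a single match in the genome. The window after a 58-nt exon of the chloride channel Ano1 (chr7:151796498-151796747) held 2 and 19 tags, a ratio of 4.57 (1.10 to 40.4). That interval held 1 with tags of at least 2 reads (0.553 to 160), with identical positions collapsed (0.668 to 211) and on the sense scale (0.814 to 29.9). None of the 21 tags held YGCY, and 18 of them ended at the same base. No tag in the Ano1 window lay in a RefSeq miRNA hairpin.

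**Figure D5:**
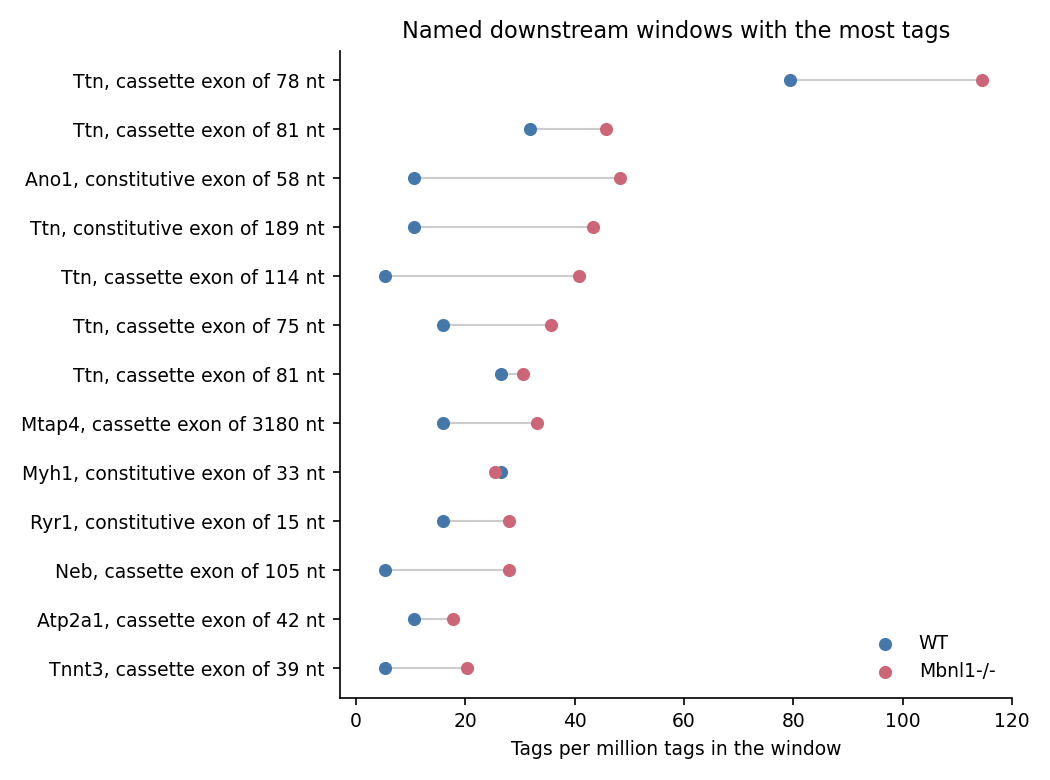
Named windows in which every tag matched the genome once, those with the most tags, are listed by gene, exon class and exon length (y axis), with TPM in WT and Mbnl1-/- (x axis) joined by a line; counts behind the points run from 1 to 45. The first Ttn window reaches 79.5 and 115, and the Ano1 window goes from 10.6 to 48.4.

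Of the 133 windows with at least 5 tags, 7 had all of them in WT and 38 all of them in Mbnl1-/-. Among all 4351 tagged windows, 1721 had a tag in WT, 3128 in Mbnl1-/- and 498 in both. Mbnl1-/- supplied 4891 of the 6921 tags in windows, and how far this depth accounts for the 7 and 38 was not tested. In WT only, windows of Znrf3 (chr11:5270284-5270533) and Gm15401 (chr6:72582953-72583202) held 7 tags each, none with YGCY. Tags in both of these windows matched up to 3 places in the genome, so the origin of such tags is uncertain. A window of Ikbkg (chrX:71693260-71693407) held 6 tags in WT only, all with YGCY. In Mbnl1-/- only, Ptprs held 11 tags, a 125-nt exon of the glycogen-targeting phosphatase subunit Ppp1r3a was followed by 9 (chr6:14671604-14671853), and a 12-nt cassette exon of dynamin 2 (Dnm2) by 8 (chr9:21295114-21295363). These windows were picked because 1 table was empty, and no fold is given for them at these counts.

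Where windows had enough tags for a ratio, Mbnl1-/- was usually the higher. Of 25 windows with at least 10 tags over both tables, 20 had a higher TPM in Mbnl1-/-, and 11 (44%) were at least 2-fold higher there, while 0 (0%) were at least 2-fold lower. The median ratio was 1.92, and 3 intervals lay wholly above 1. Of 38 genes with at least 10 tags, 33 were higher in Mbnl1-/-, 16 (42.1%) at least 2-fold, 0 (0%) at least 2-fold lower, and 11 intervals lay above 1, with a median ratio of 1.86. On the sense scale 18 of the windows and 30 of the genes were higher in Mbnl1-/-, 8 and 9 of them at least 2-fold, 2 windows and 2 genes were at least 2-fold lower, 0 and 4 intervals lay above 1, and 1 and 0 lay below it. The larger table supplies most of the tags that carry a window past 10, so these shares describe the windows that passed and not all windows.

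The 24 genes whose splicing the study examined were set beside this background. Tags were found in 19 of them, 92 in WT and 367 in Mbnl1-/-, a ratio of 1.92 (1.52 to 2.44), and without Ttn 36 and 138, a ratio of 1.84 (1.27 to 2.74). On the sense scale these ratios were 1.42 (1.12 to 1.80) and 1.36 (0.938 to 2.02). Of the 7 with at least 10 tags, 3 were at least 2-fold higher in Mbnl1-/- against the 42.1% of all such genes, with a median ratio of 1.97. Some of these genes were chosen by the study on these samples, so the list is not independent evidence of its direction. Cacna1s had 3 and 2 tags, Spag9 3 and 3, Bin1 1 and 0, Nfix 0 and 1, and Mbnl1 0 and 1, while Arhgef7, Adk, Pdp1, Tlk2 and Tnnt2 had none in either table.

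By function, sarcomere and Z-disc genes were the most densely tagged list. They had 125 WT tags and 463 Mbnl1-/- tags in 172 of 1363 windows, a ratio of 1.78 (1.46 to 2.19), and 69 and 234 without Ttn, a ratio of 1.63 (1.24 to 2.16). Over all genes, 2.76% of windows had a tag and the ratio was 1.16. Cassette windows held 61.6% of the tags of sarcomere genes, or 39.6% without Ttn, against 20.9% over all genes. Ttn, Neb and Tnnt3 had the most tags, and myosin-binding protein C1 (Mybpc1) had 7 and 20.

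Genes of excitation-contraction coupling and calcium handling had 26 and 110 tags, a ratio of 2.03 (1.32 to 3.25), led by Ryr1, Atp2a1 and Trdn. Splicing regulators had 12 and 51, a ratio of 2.04 (1.07 to 4.21), led by Mbnl2, the muscle and neuronal splicing factor Rbfox1 with 0 and 6, and the RNA-binding protein Rbm5 with 0 and 6. The splicing activator Tra2a, with 1 and 5, was tied with the last pair in total. Genes of metabolism and signalling had 21 and 75, a ratio of 1.72 (1.05 to 2.93), with the AMP deaminase Ampd1 at 1 and 8, the muscle phosphofructokinase Pfkm at 3 and 5, and the muscle enolase Eno3 at 0 and 7. These 3 lists had intervals above 1 on the scale of all tags used. On the sense scale their ratios were 1.50 (0.973 to 2.40), 1.51 (0.794 to 3.11) and 1.27 (0.773 to 2.17), so that all 3 intervals held 1. The sarcomere list was at 1.32 (1.08 to 1.62) on that scale and at 1.20 (0.917 to 1.60) without Ttn.

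The remaining lists had intervals that held 1. Ion channels and ankyrins had 15 and 54 tags, a ratio of 1.73 (0.963 to 3.30), led by Ano1, Clcn1 and, with 1 and 4 tags, the membrane adaptor Ank2, which was tied in total with Ank3 at 0 and 5. Genes of the dystrophin complex and costamere had 18 and 58, a ratio of 1.55 (0.900 to 2.79), with 4 and 12 in the cytoskeletal linker Dst, 0 and 9 in the nuclear envelope protein Syne1, and 1 and 5 in dystrophin (Dmd). Transcription factors had 9 and 21, a ratio of 1.12 (0.492 to 2.78), of which the Hippo pathway factor Tead1 had 1 and 6, all of them after cassette exons. The myogenic factor Mef2d had 0 and 4, and the calcium-responsive factor Nfatc4 1 and 3.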

How the data were processed

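Mbnl2 HITS-CLIP tags were taken from 1 merged table per genotype. According to the study, reads were filtered, aligned to mm9 with BWA, short sequences were discarded and potential PCR duplicates were removed. The deposited tables give each tag's place and how many reads were collapsed into it, and the counts used here are counts of these tags as the authors deposited them. Exons came from GENCODE vM1 and reference sequence from NCBIM37 (mm9).

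Tags with at least 70% of a single base were left out, and a tag was placed by its midpoint on the strand of the gene. Scales were the remaining tags on assembled chromosomes per table. Ratios between tables have exact Clopper-Pearson intervals, within-gene ratios are Mantel-Haenszel rate ratios with gene as stratum and Greenland-Robins intervals, and odds ratios are exact. All intervals are at 95% and cover counting error only, since reads carry no molecular identifiers and tags in a window are not independent. No p-value was computed. The counting was checked on simulated data.

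The members, gene lists and comparisons were chosen with earlier results of these data known. Named windows were the 12 with the most tags over both tables, the 8 cassette windows with the most tags, windows with at least 5 tags in the 24 genes whose splicing the study examined (gene totals otherwise), and the 3 genes with the most tags per gene list. Some windows and genes that this rule names are not reported here. Windows present in 1 table only, and the hexamers of WT tags, were chosen after their values were seen. Python 3.11.15, pandas 2.3.3, scipy 1.17.1, pysam 0.24.0 and samtools 1.23.1 were used.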

Additional observations from a re-analysis of the deposited data

How the results depend on the processing

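The summary values were recomputed under each setting: the ratio of Mbnl1-/- to WT in all windows and in the named windows, and per genotype the within-gene ratio of cassette to constitutive windows, the downstream to upstream ratio, the YGCY share, and, chosen after seeing the data, the odds ratio of cassette tags. In all, 99 recomputed values stayed within the interval of the value reported, 47 moved outside it and 1 changed side. The ratio over all windows, 1.16, turned to 0.856 on the scale of sense tags of protein-coding genes, and the cause was not tested. It was 1.50 with single-base tags kept, 1.08 with tags of at least 2 reads, 1.08 with identical positions collapsed, 1.09 with equal 5' ends collapsed, 1.01 with tags of at least 25 nt, 1.50 with Mbnl1-/- reads thinned to the WT total, 2.41 unscaled and 1.72 scaled to all tags. The ratio over the named windows, 1.83, was 2.72 with single-base tags kept, 1.05 with tags of at least 25 nt, 3.00 after thinning, 3.82 unscaled, 1.36 on the sense scale and 2.72 scaled to all tags.

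The cassette to constitutive ratio stayed above 1 in every setting run. In WT it was 2.56 with tags of at least 2 reads and 2.17 in windows of 100 nt. In Mbnl1-/- it was 2.60 with at least 2 reads, 2.77 at 100 nt, 1.83 at 500 nt, 2.84 with tags of at least 25 nt, 2.55 after thinning, 2.43 with classes from protein-coding transcripts and 1.96 without Ttn. The odds ratio of cassette tags downstream, 1.24, was 1.06 with at least 2 reads and 1.43 after thinning. The downstream to upstream ratio also stayed above 1. In WT it was 1.09 with single-base tags kept, 1.26 at 100 nt, 1.10 at 500 nt and 1.33 at 25 nt or longer. In Mbnl1-/- it was 1.13 when tags were placed by their 5' ends, 1.30 at 100 nt, 1.11 without the 20 windows with the most tags, 1.26 at 25 nt or longer and 1.26 after thinning.

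The YGCY share in WT was 38.0% with single-base tags kept, 47.6% with tags of at least 90% 2 bases left out, 56.4% with at least 2 reads, 59.6% at 25 nt or longer, 35.4% for TGCT alone and 48.1% without tags holding GGGAGG, or GAGGAC, or GGACGA. In Mbnl1-/- it was 52.8% with single-base tags kept, 59.9% with at least 2 reads, 59.4% at 100 nt, 53.1% at 500 nt, 62.6% at 25 nt or longer, 59.2% after thinning and 43.3% for TGCT alone. Leaving out Ttn, tags with more than 1 match in the genome, or tags with the 3 hexamers was chosen after seeing the data. Among single windows, 428 recomputed ratios stayed within the intervals first reported and 4 moved. Staying within such a wide interval does not mean that the direction held, and with unscaled tags aside the ratio of 18 of the 27 named windows with a ratio crossed 1 in at least 1 setting. Among them Ryr1 fell from 1.76 to 0.547 at 25 nt or longer, and with at least 2 reads Mtap4 fell from 2.08 to 0.831, Atp2a1 from 1.68 to 0.779 and Ldb3 from 1.44 to 0.467. Of the 27 windows with a ratio, those of Ttn after the 114-nt exon and of Ano1 had intervals above 1, which held 1 in some settings. The Ptprs window, with 0 WT tags and so no ratio, had an interval that began at 1.21. On the sense scale the Ptprs interval began at 0.892. After thinning, the intervals of other windows came to lie above 1. These were Ttn at chr2:76687271-76687313 (1.28 to 5.14), chr2:76678040-76678289 (1.27 to 11.2), chr2:76688254-76688362 (1.13 to 26.0) and chr2:76764894-76765143 (1.21 to 58.4), and Neb (2.15 to 656).

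No paired analysis was possible because no table holds a single mouse, and no mouse was left out in turn for the same reason. Most windows hold 0 or 1 tag, so single windows set wide limits on any difference.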
